A study of Mus musculus with 20 samples.

Results

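The 10 genes described here encode the core of the TGF-beta (transforming growth factor beta) system: the ligands Tgfb1, Tgfb2 and Tgfb3, the receptors Tgfbr1, Tgfbr2 and Tgfbr3, and the latent TGF-beta binding proteins Ltbp1, Ltbp2, Ltbp3 and Ltbp4. They were taken by symbol from the 55573 genes of the count table, and all 10 were found and passed the filters on low counts. They were followed by mRNA sequencing in 20 libraries of mouse embryoid body (EB) cultures, from 4 lines of induced pluripotent stem cells (iPSCs) on days 0, 3, 5, 7 and 14, with 1 library per line and day. WT#1-4 and WT#20D-17 are wild type, and Nox4-/- #5-8 and Nox4-/- #5-23 come from mice without Nox4, an NADPH oxidase that produces reactive oxygen species. The study asked how Nox4 bears on differentiation of the germ layers. Cells of every line were embryonic fibroblasts reprogrammed with viral Oct4, Sox2, Klf4 and c-Myc, and each line is 1 clone, so that a difference between genotypes cannot be told apart from a difference between clones where only 1 line stands on a side. Day 0 cells were grown with LIF on feeder fibroblasts inactivated with mitomycin C. For the later days, single cells were aggregated in hanging drops without LIF for 3 days and then plated on gelatin. The last day is given as 14 in the sample titles, while the protocol text of the labels ends at day 10. The study's text names 3 of the lines and not WT#20D-17. Libraries held between 20294968 and 27708023 counts (median 23878854), and levels are given as CPM, the counts relative to a common library size after scaling with TMM factors. The smallest amount taken as detected, 3 counts, was between 0.109 and 0.157 CPM, and this floor and all intervals cover counting error only.

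TGF-beta ligands are made as precursors. After cleavage, the mature dimer stays bound to its own propeptide, and this latent complex is often joined to an LTBP, which anchors it in the extracellular matrix until integrins, proteases or thrombospondin release the ligand. Free ligand binds the type II receptor (Tgfbr2), which phosphorylates the type I receptor (Tgfbr1), and this kinase activates Smad2 and Smad3. Betaglycan (Tgfbr3) presents ligands, TGF-beta2 above all, to the type II receptor. In EBs and embryos the pathway is known for its part in mesoderm, vessel wall and matrix formation.

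The label iPSC and the genotype were checked against marker genes first. Nox4 was between 2.62 and 9.01 CPM in WT#20D-17, had 3 to 22 counts in WT#1-4 and had at most 2 counts in the Nox4-/- libraries. On day 0, 9 pluripotency markers summed to 2530 CPM in WT#20D-17, with Dppa5a the most abundant at 900 CPM. The same sum on day 0 was 8.93 CPM in WT#1-4, 5.03 in Nox4-/- #5-8 and 1.86 in Nox4-/- #5-23, and 4, 5 and 5 of the 9 genes in these libraries were at or under 3 counts. The day 0 libraries of these 3 lines thus held little of the RNA that marks the cells named on their labels. The study itself reports alkaline phosphatase activity and staining for Oct4, Sox2 and SSEA-1 in iPSCs of these lines. Endoderm markers (Afp, Sox17, Foxa2, Apoa1, Ttr and Gata4) summed to between 120 and 1664 CPM in WT#20D-17 and to at most 3.64 CPM in any other library. Fibroblast markers summed to between 38.0 and 3310 CPM in WT#20D-17, between 99.7 and 159 in WT#1-4, between 30.7 and 46.3 in Nox4-/- #5-8 and between 21.7 and 41.4 in Nox4-/- #5-23. Smooth muscle markers summed to between 32.3 and 1036 CPM in WT#20D-17, between 16.0 and 94.6 in WT#1-4, between 2.36 and 24.4 in Nox4-/- #5-8 and between 2.90 and 21.5 in Nox4-/- #5-23. WT#20D-17 therefore stood apart, and the tests between days 0 and 14 and those with the line as the unit are also given without it. The part of these cell types, and of feeder cells on day 0, in the levels below was not tested.

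**Figure D1:**
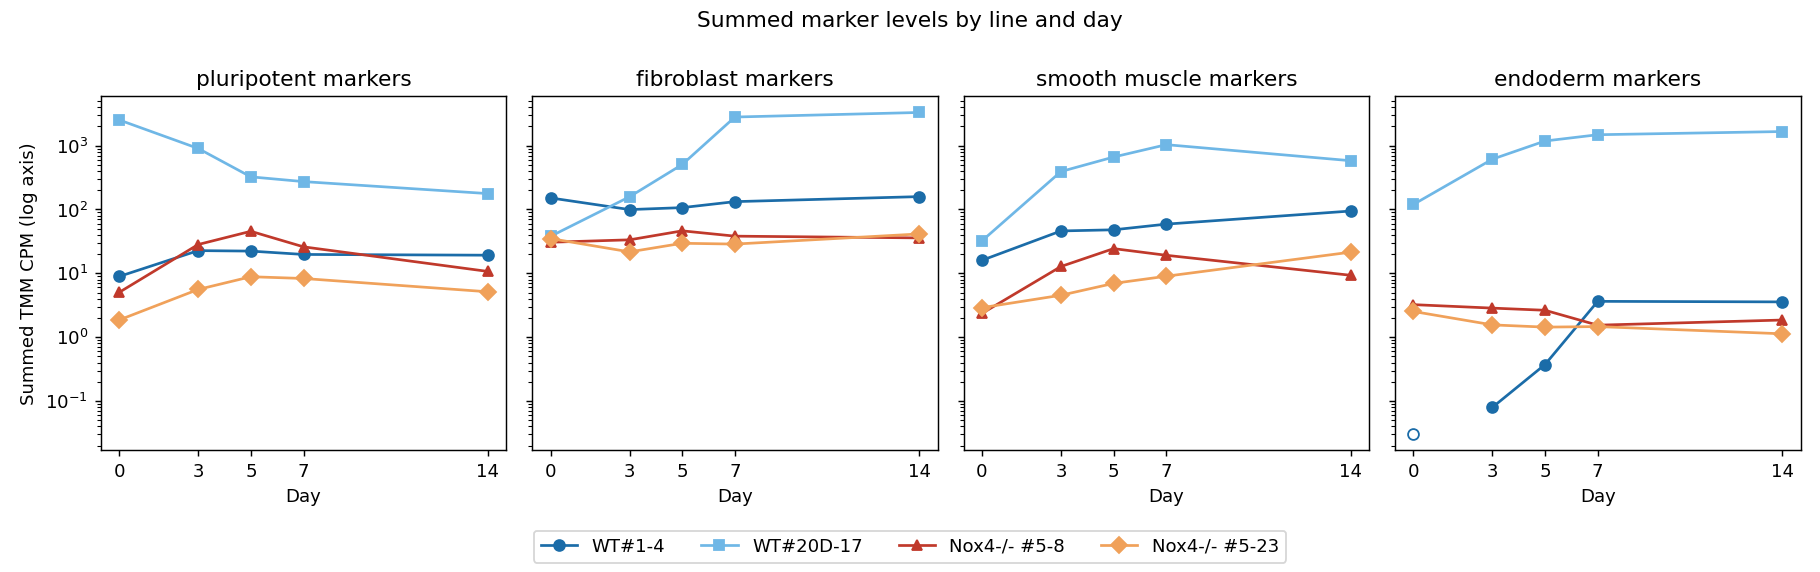
Summed TMM CPM (log axis) of pluripotent, fibroblast, smooth muscle and endoderm markers against day, with 1 point per library and a colour per line. The pluripotent sum of WT#20D-17 begins at 2530 CPM on day 0 and the highest value of any other line is 45.6 CPM (Nox4-/- #5-8); the open symbol marks the endoderm sum of 0 in WT#1-4 on day 0.

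Positions are from the GENCODE M21 annotation of GRCm38, the build of the counts. The ligand genes are Tgfb1 (ENSMUSG00000002603, chr7:25687002-25705077, plus strand), Tgfb2 (ENSMUSG00000039239, chr1:186622792-186705989, minus strand) and Tgfb3 (ENSMUSG00000021253, chr12:86056745-86079041, minus strand). The receptor genes are Tgfbr1 (ENSMUSG00000007613, chr4:47353222-47414931, plus strand), Tgfbr2 (ENSMUSG00000032440, chr9:116084293-116175360, minus strand) and Tgfbr3 (ENSMUSG00000029287, chr5:107106570-107289629, minus strand). The LTBP genes are Ltbp1 (ENSMUSG00000001870, chr17:75005568-75392512, plus strand), Ltbp2 (ENSMUSG00000002020, chr12:84783212-84876532, minus strand), Ltbp3 (ENSMUSG00000024940, chr19:5740904-5758532, plus strand) and Ltbp4 (ENSMUSG00000040488, chr7:27305136-27337692, minus strand). All are protein coding, and counts cover their exons. The exons of Ltbp2 share 764 bases with the antisense gene D030025P21Rik, which had at most 7 counts. Whether the counting used the strand is not given in the sources used here, so reads in such stretches cannot be assigned with certainty.

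Promoters from RefSeq (GRCm38.p6) were matched for 8 of the 10 genes. The 3 shown are of the genes that were lower in both Nox4-/- lines than in both wild type lines on every day (below), as the part of the 250 bases before the RefSeq start that lies outside annotated exons, read 5′ to 3′ on the gene's strand. They are chr7:25686752-25687001 (plus strand) for Tgfb1, chr4:47352972-47353221 (plus strand) for Tgfbr1 and chr12:84876533-84876741 (minus strand) for Ltbp2, and capitals mark the GC box GGGCGG on either strand, a motif bound by Sp1.
Tgfb1: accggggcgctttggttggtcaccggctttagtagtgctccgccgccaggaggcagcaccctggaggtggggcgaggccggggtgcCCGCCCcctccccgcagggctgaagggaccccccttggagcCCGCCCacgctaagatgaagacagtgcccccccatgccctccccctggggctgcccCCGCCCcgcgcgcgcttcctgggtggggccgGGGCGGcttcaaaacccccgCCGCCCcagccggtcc
Tgfbr1: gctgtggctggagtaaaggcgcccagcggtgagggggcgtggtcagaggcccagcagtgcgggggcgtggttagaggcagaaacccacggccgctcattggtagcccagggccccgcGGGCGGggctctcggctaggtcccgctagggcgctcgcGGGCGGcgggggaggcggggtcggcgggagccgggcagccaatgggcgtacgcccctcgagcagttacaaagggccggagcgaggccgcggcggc
Ltbp2: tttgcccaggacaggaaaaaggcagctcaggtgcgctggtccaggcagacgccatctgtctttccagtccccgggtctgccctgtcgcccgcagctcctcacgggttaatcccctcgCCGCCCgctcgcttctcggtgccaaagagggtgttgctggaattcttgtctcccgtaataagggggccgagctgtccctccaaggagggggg
The GC box occurred 5 times before Tgfb1, 2 times before Tgfbr1 and 1 time in the 209 bases shown for Ltbp2. Over all 27025 promoters, 32.9% hold it in the 250 bases before the start. An AP-1 motif (TGANTCA), searched on both strands, was in none of the 3 stretches, against 6.87% of all promoters. Of the other 5 genes with a promoter, Ltbp4 held GC boxes before each of its 3 listed starts, and Tgfb2, Tgfbr2, Ltbp1 and Ltbp3 held none in the part outside exons, nor did the second start of Tgfbr1. These matches describe the letters only.

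Among the ligands, Tgfb2 was the most abundant per length on every day in both Nox4-/- lines and up to day 7 in WT#1-4, and WT#20D-17 had another make-up. As CPM per kilobase of exon, a level that can be set between genes, Tgfb2 made up 83.1% to 97.1% of the 3 ligands in Nox4-/- #5-8 and 93.7% to 98.1% in Nox4-/- #5-23. Its share in WT#1-4 was 66.1% on day 0, 81.4% on day 5 and 36.1% on day 14, when Tgfb3 made up 53.2%. In WT#20D-17 Tgfb1 made up 80.4% on day 0 and between 43.0% and 52.2% on the later days. The sum of the 3 ligands was 1.54 CPM per kilobase in WT#20D-17 on day 0, between 11.1 and 26.5 in that line later, between 25.7 and 43.4 in WT#1-4 and Nox4-/- #5-8, and between 35.7 and 81.0 in Nox4-/- #5-23. Tgfb1 was thus the main ligand transcript only in WT#20D-17 on days 0, 5 and 14.

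**Figure D2:**
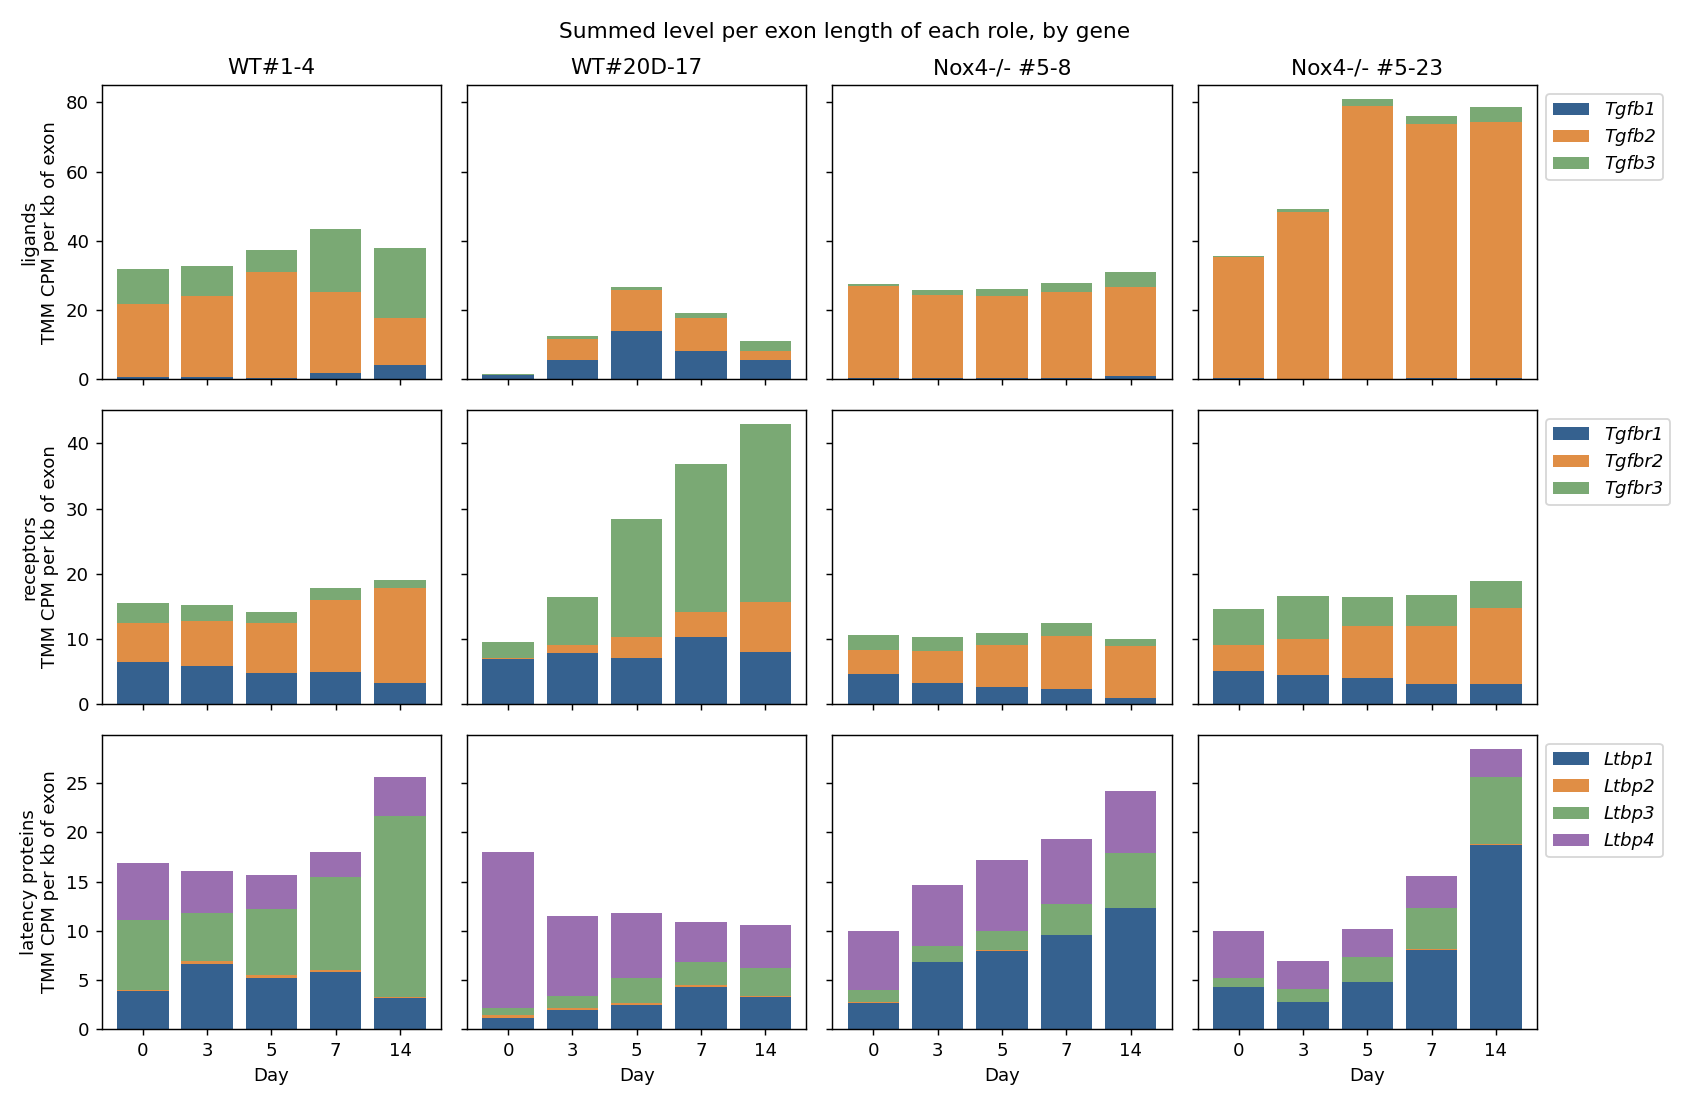
Stacked TMM CPM per kilobase of exon (bars start at 0) of the ligands, receptors and latency proteins, by day in each line, with 1 library per bar and a colour per gene. Tgfb2 fills most of the ligand bar in both Nox4-/- lines, and Tgfbr3 fills most of the receptor bar of WT#20D-17 from day 5.

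Tgfb1, the ligand best known for its effects on matrix and immune cells, was lower in Nox4-/- cells than in either wild type line on every day. It was 3.99, 2.74, 2.42, 9.33 and 20.3 CPM in WT#1-4 on days 0, 3, 5, 7 and 14. WT#20D-17 had 6.23, 27.6, 69.8, 41.5 and 27.5 CPM. These courses differed in shape, with the highest value on day 14 in WT#1-4 and on day 5 in WT#20D-17. Nox4-/- #5-8 had 1.60, 1.34, 2.03, 2.50 and 4.73 CPM and Nox4-/- #5-23 had 1.60, 0.412, 0.756, 1.47 and 2.41 CPM, where 0.412 CPM rests on 9 counts (95% Wilson interval 0.217 to 0.784). The gap was narrowest on day 5, between 2.42 CPM in WT#1-4 (65 counts) and 2.03 CPM in Nox4-/- #5-8. Over all days the ranges overlapped, from 0.412 to 4.73 CPM in Nox4-/- cells and from 2.42 to 69.8 CPM in wild type cells. Against WT#1-4 the log2 fold change of Nox4-/- cells was -2.04 (SE 0.502 from the quasi-likelihood fit, FDR 0.00193 from edgeR's exact test with days pooled), and against WT#20D-17 it was -4.19 (SE 0.469, exact test FDR 2.81e-16). The first of these calls depended on the test and on single libraries, since the FDR was 0.0152 by the quasi-likelihood test, and by the exact test 0.0920 without Nox4-/- #5-23 (log2 fold change -1.67) and 0.0378 without day 7. Tgfb1 was among the growth factors that the study drew from its own comparison of these libraries, so its direction against WT#1-4 is not independent evidence.

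Tgfb2, which acts in heart and neural crest development and depends most on betaglycan, was highest in Nox4-/- #5-23 on all days. There it was 202, 280, 457, 426 and 427 CPM. In Nox4-/- #5-8 it was 154, 139, 137, 144 and 148 CPM, and in WT#1-4 it was 122, 137, 177, 135 and 79.2 CPM. WT#20D-17 had 0.410 CPM on day 0 (10 counts, 95% Wilson interval 0.223 to 0.755), then 35.4, 69.2, 54.8 and 15.2 CPM. All 10 Nox4-/- libraries, from 137 to 457 CPM, lay above all 5 of WT#20D-17, while over all days Nox4-/- #5-8 and WT#1-4 overlapped. Within days, both Nox4-/- lines lay above both wild type lines on days 0, 3, 7 and 14. The gap was narrow on day 3, with 139 CPM in Nox4-/- #5-8 and 137 in WT#1-4. On day 5 Nox4-/- #5-8 (137 CPM) lay below WT#1-4 (177 CPM). The log2 fold change of Nox4-/- cells was 2.84 against WT#20D-17 (SE 0.685, exact test FDR 0.000331) and 0.95 against WT#1-4 (SE 0.335, FDR 0.0761), and the latter passed in a quasi-likelihood fit that adds a term for day (0.94, FDR 0.00653). Against WT#20D-17 Tgfb2 did not pass without Nox4-/- #5-23 (2.06, exact test FDR 0.0271). The Nox4-/- lines also differed between themselves, with Tgfb2 higher in #5-23 by 1.31 on the log2 scale (SE 0.213, exact test FDR 1.36e-05).

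Tgfb3, a ligand of palate and heart cushion development, was high in WT#1-4 alone. It was 33.8, 29.2, 21.9, 61.9 and 68.1 CPM in WT#1-4. Nox4-/- #5-8 had 1.60, 4.74, 7.00, 8.09 and 14.5 CPM and Nox4-/- #5-23 had 1.71, 2.89, 6.50, 7.24 and 15.2 CPM. WT#20D-17 had 0.779, 2.93, 2.53, 4.88 and 10.1 CPM. The lowest library of WT#1-4 lay above the highest of every other line, and the Nox4-/- lines lay close to each other and mostly just above WT#20D-17. Nox4-/- cells were lower than WT#1-4 by a log2 fold change of -2.63 (SE 0.438, exact test FDR 4.18e-07), and against WT#20D-17 the value was 0.71 (SE 0.571, FDR 0.452). WT#20D-17 was likewise lower than WT#1-4 (-3.36, SE 0.572, exact test FDR 7.14e-07), so the direction between genotypes depended on the wild type line.

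Among the receptors, Tgfbr1 was lower on day 14 than on day 0 in 3 of the 4 lines and Tgfbr2 was higher in 4. The Tgfbr1 difference did not pass with all lines (below), and no test compared these genes. Tgfbr1, the type I receptor kinase, was 42.4, 38.1, 31.0, 31.9 and 20.9 CPM in WT#1-4 and 45.0, 51.2, 46.3, 67.7 and 52.0 CPM in WT#20D-17. The levels in Nox4-/- #5-8 were 29.9, 21.2, 17.8, 15.7 and 6.21 CPM and Nox4-/- #5-23 had 33.4, 29.3, 26.7, 20.7 and 20.6 CPM. Both Nox4-/- lines lay below both wild type lines on each day, with the smallest gap on day 14, where WT#1-4 had 20.9 and Nox4-/- #5-23 had 20.6 CPM. The log2 fold change of Nox4-/- cells was -1.24 against WT#20D-17 (SE 0.260, exact test FDR 5.49e-05) and -0.57 against WT#1-4 (SE 0.274, FDR 0.306).

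Tgfbr2, the type II receptor that binds ligand first, was higher on day 14 than on day 0 in all 4 lines. It was 49.3, 56.8, 62.8, 91.4 and 120 CPM in WT#1-4. It was 1.64 CPM in WT#20D-17 on day 0 (40 counts), and 9.99, 26.3, 30.7 and 63.0 CPM on the later days. Nox4-/- #5-8 had 30.7, 40.9, 52.7, 65.5 and 65.7 CPM and Nox4-/- #5-23 had 32.3, 45.3, 64.7, 72.9 and 95.3 CPM. In every line the value on each day was above that of the day before it in the series. The last step in Nox4-/- #5-8 was close to no change, and turned with DESeq2 size factors (64.89 CPM on day 7 and 64.87 on day 14). No comparison between lines passed an FDR of 0.01 for Tgfbr2 (exact test FDR of 0.495 against WT#1-4 and 0.0974 against WT#20D-17), but against WT#20D-17 it did in a quasi-likelihood fit that adds a term for day (log2 fold change 1.56, FDR 0.000584).

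Tgfbr3, or betaglycan, took opposite courses in the wild type lines. WT#20D-17 had 15.7, 48.6, 118, 149 and 179 CPM. In WT#1-4 it was 19.4, 16.6, 11.4, 11.9 and 7.19 CPM, Nox4-/- #5-8 had 15.1, 13.5, 11.7, 13.1 and 6.86 CPM, and Nox4-/- #5-23 had 36.0, 43.0, 28.9, 30.7 and 26.9 CPM. The day 14 level was 11.4-fold that of day 0 in WT#20D-17, and 0.371-fold, 0.456-fold and 0.748-fold in WT#1-4, Nox4-/- #5-8 and Nox4-/- #5-23. WT#20D-17 was higher than WT#1-4 by 2.92 on the log2 scale (SE 0.530, exact test FDR 3.55e-06; with a quasi-likelihood fit that adds a term for day, 2.66 and FDR 0.0170, which did not pass) and Nox4-/- cells were lower than WT#20D-17 (-2.18, SE 0.441, FDR 9.50e-06 from the exact test). Against WT#1-4 the value of Nox4-/- cells was 0.77 (SE 0.375, exact test FDR 0.327), so the direction depended on the wild type line. Nox4-/- #5-23 was higher than #5-8 (1.46, SE 0.225, exact test FDR 5.98e-06). Tgfbr3 lies on chromosome 5, and the 967 genes of that chromosome were, by their median, higher in Nox4-/- #5-23 than in #5-8 by 0.43 to 0.52 on the log2 scale on the 5 days, relative to all genes. The part of that shift in the difference of Tgfbr3 was not tested.

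**Figure D3:**
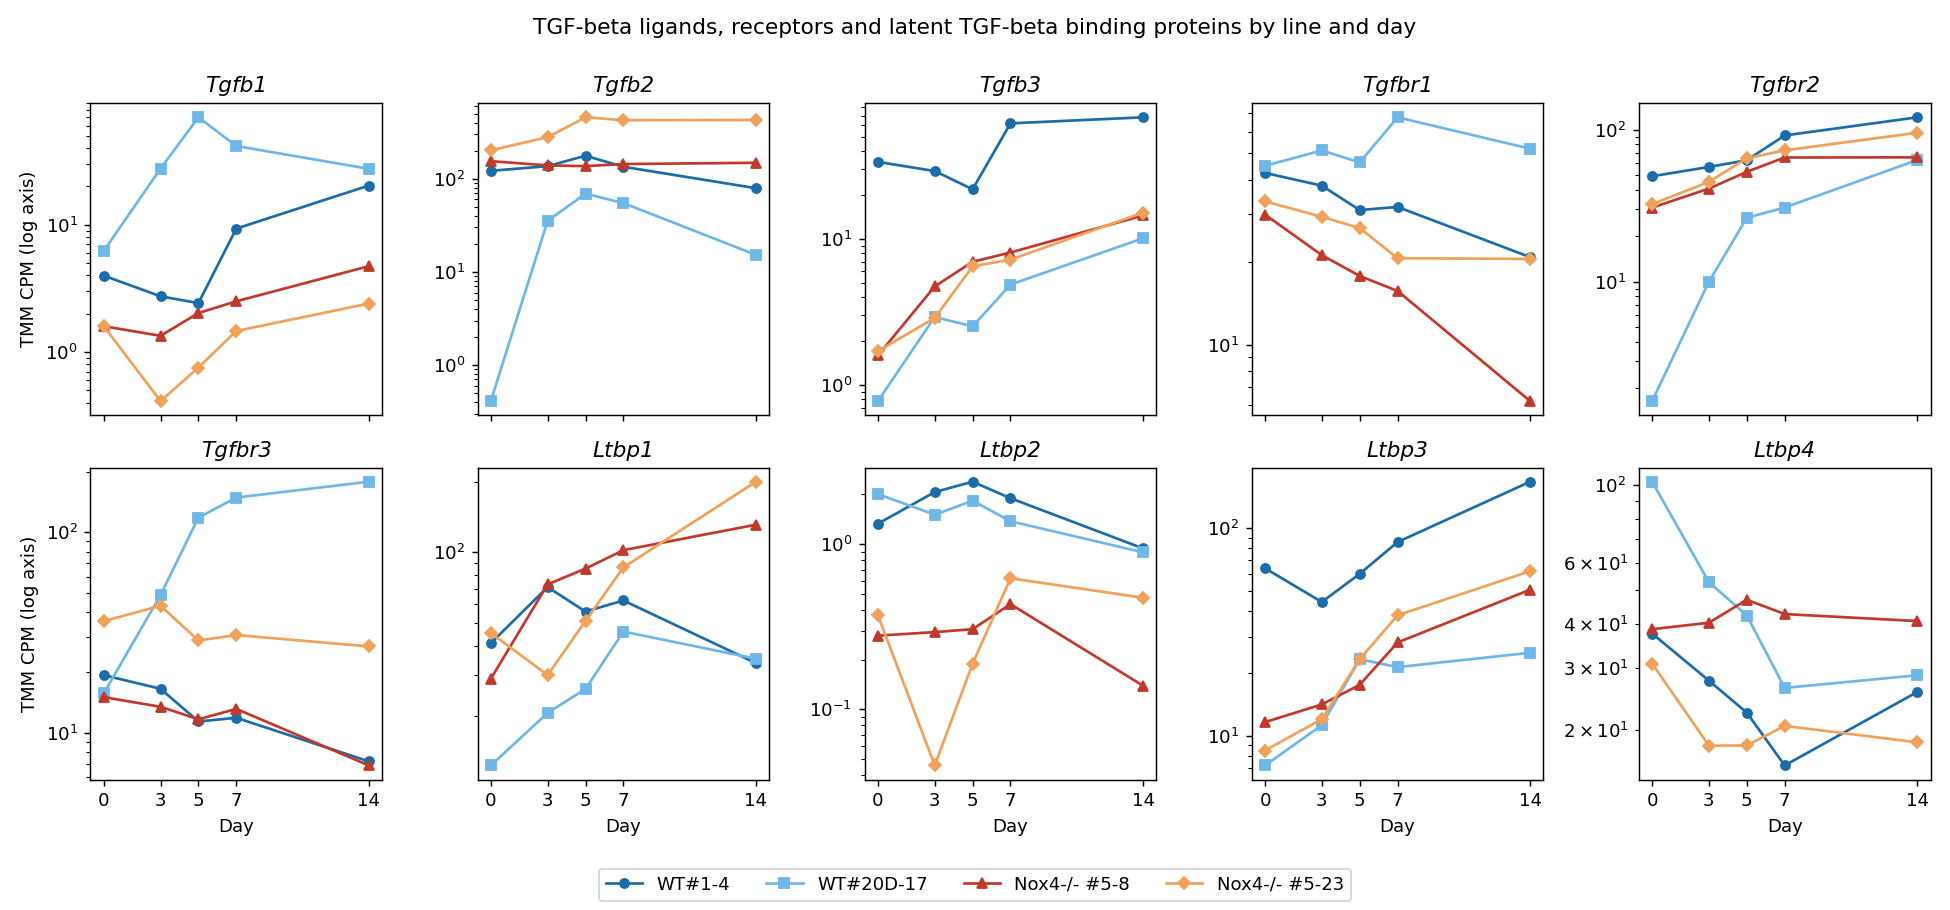
TMM CPM (log axis, with its own range in each panel) of the 10 genes against day, with 1 point per library and a colour and symbol per line. The Nox4-/- lines lie below both wild type lines on every day for Tgfb1, Tgfbr1 and Ltbp2. From day 5, Tgfbr3 separates WT#20D-17, at 179 CPM on day 14, from the other lines.

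Of the latency proteins, Ltbp1, the most widely studied carrier of latent TGF-beta, had its highest values in Nox4-/- cells on day 14. It was 28.9, 73.1, 85.3, 102 and 131 CPM in Nox4-/- #5-8 and 45.3, 30.0, 51.0, 86.4 and 200.4 CPM in Nox4-/- #5-23. It was 41.0, 71.2, 55.9, 62.4 and 33.7 CPM in WT#1-4 and 12.3, 20.7, 26.2, 45.9 and 35.2 CPM in WT#20D-17. Both Nox4-/- lines lay above both wild type lines on days 7 and 14, and the lines overlapped before that. On day 14 the mean of the Nox4-/- lines was 4.92-fold that of WT#1-4 and 4.71-fold that of WT#20D-17. With days pooled, the difference passed against WT#20D-17 (log2 fold change 1.57, SE 0.429, exact test FDR 0.00215) and not against WT#1-4 (0.66, SE 0.380, FDR 0.458). The former did not pass without Nox4-/- #5-8 (exact test FDR 0.0104) or without day 5 (FDR 0.0132).

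Ltbp2, a microfibril protein that unlike its relatives does not bind latent TGF-beta, was the lowest of the 10 genes per exon length in 19 of the 20 libraries and the only one whose genotypes did not overlap at all. It was 1.33, 2.07, 2.39, 1.90 and 0.942 CPM in WT#1-4 and 2.01, 1.51, 1.83, 1.38 and 0.892 CPM in WT#20D-17. Levels in Nox4-/- #5-8 were 0.279, 0.294, 0.306, 0.433 and 0.139 CPM and Nox4-/- #5-23 had 0.372, 0.0458, 0.189, 0.622 and 0.474 CPM. The wild type libraries had 17 to 64 counts and the Nox4-/- libraries 1 to 14, with 1 library (#5-23 on day 3) below 3 counts and 1 (#5-8 on day 14) at it. Nox4-/- cells were lower by a log2 fold change of -2.43 against WT#1-4 (SE 0.416, exact test FDR 7.33e-08) and -2.25 against WT#20D-17 (SE 0.429, FDR 1.26e-07 from the exact test). The wild type lines did not differ past the threshold (-0.19, SE 0.413, exact test FDR 0.959).

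Ltbp3, which helps to secrete latent TGF-beta1 and acts in bone and teeth, followed Tgfb3 in being highest in WT#1-4. It was 64.1, 44.1, 60.3, 85.7 and 167 CPM in WT#1-4 and 7.21, 11.3, 23.4, 21.4 and 25.1 CPM in WT#20D-17. Nox4-/- #5-8 had 11.7, 14.2, 17.6, 28.2 and 50.5 CPM and Nox4-/- #5-23 had 8.51, 12.1, 23.4, 38.1 and 62.0 CPM. WT#1-4 lay above the other lines on each day. Nox4-/- cells were lower than WT#1-4 (log2 fold change -1.66, SE 0.410, exact test FDR 0.00190), and so was WT#20D-17 (-2.27, SE 0.411, exact test FDR 5.60e-06). For Nox4-/- cells the call was lost with the quasi-likelihood test (FDR 0.0155), without Nox4-/- #5-8 (-1.51, exact test FDR 0.0551) and without day 3, 5 or 7 (FDR 0.0103, 0.0215 and 0.0181).

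Ltbp4, a partner of TGF-beta1 known from elastic fibres of lung and vessel, was 102, 52.8, 42.4, 26.3 and 28.6 CPM in WT#20D-17 and 37.6, 27.6, 22.4, 15.8 and 25.6 CPM in WT#1-4. Nox4-/- #5-8 had 38.7, 40.4, 47.0, 42.8 and 40.9 CPM and Nox4-/- #5-23 had 30.9, 18.0, 18.0, 20.5 and 18.4 CPM. The Nox4-/- lines lay on either side of WT#1-4 on most days, with #5-23 lower than #5-8 (-0.99, SE 0.182, exact test FDR 0.000591). This did not pass by the quasi-likelihood test (FDR 0.0112), or by the exact test without day 3, 5 or 7 (FDR 0.0545, 0.0940 and 0.0494). Against the wild type lines the FDR was 0.844 for WT#1-4 and 0.104 for WT#20D-17 by the exact test.

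Per exon length, the order of the 10 genes varied between lines. By the mean of the lines Tgfb2 came first on every day, with a mean over the 4 lines of 20.7 CPM per kilobase on day 0 (SD 14.9, n = 4) and 28.9 on day 14 (SD 31.4, n = 4), and Ltbp2 came last, with 0.122 (SD 0.101) and 0.0748 (SD 0.0463). By library, Tgfb2 was first in 14 of 20 and Ltbp2 last in 19. In WT#20D-17 on day 0 Tgfb2 was last (0.0708 CPM per kilobase) and Ltbp4 first (15.8), and in WT#1-4 on day 14 Tgfb3 was first (20.1). On day 0 Ltbp4 (8.10, SD 5.16) and Tgfbr1 (5.77, SD 1.11) came next after Tgfb2, and on day 14 Tgfbr2 (10.5, SD 3.31) and Ltbp1 (9.37, SD 7.57) did. On both days the gap between neighbours exceeded the larger of their SDs only between Tgfb1 and Ltbp2, the last in the order, so the ranks between are not set apart by these lines.

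The first comparison asked which of the genes changed over the course of differentiation, with the 4 lines as replicates. In edgeR's quasi-likelihood test with line and day as terms, 4 of the 10 genes were higher on day 14 than on day 0 at an FDR under 0.01 and none was lower. Of all 18474 genes tested 27.8% passed, and 14.3% were higher and 13.5% lower. The rises were in Tgfb3 (log2 fold change 2.57, SE 0.389, FDR 8.53e-05), Tgfbr2 (2.01, SE 0.448, FDR 0.00189), Ltbp3 (2.00, SE 0.270, FDR 3.22e-05) and Ltbp1 (1.54, SE 0.396, FDR 0.00521). The median of the 10 genes was 0.96, against 0.04 over all genes. Tgfb3, Tgfbr2 and Ltbp3 were higher on day 14 in 4 of 4 lines and Ltbp1 in 3, with 0.822-fold the day 0 level in WT#1-4. In a fit without the line term none of the 4 passed (FDR between 0.0457 for Ltbp3 and 0.171 for Tgfb3). Fewer cells of a type and less RNA per cell cannot be told apart in such bulk libraries.

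Tgfb1 had a log2 difference of 1.61 from day 0 to day 14 (SE 0.595, quasi-likelihood FDR 0.0383), Tgfbr1 of -0.89 (SE 0.273, FDR 0.0154) and Ltbp4 of -0.81 (SE 0.259, FDR 0.0199), and none of these passed. Tgfb2 (0.38, SE 0.652), Tgfbr3 (-0.08, SE 0.548) and Ltbp2 (-0.49, SE 0.518) were within 1 SE of 0. Without WT#20D-17, the line with pluripotency markers, the same fit called Tgfb1 (1.55, FDR 0.00708) higher. It called Tgfbr1 (-1.23, FDR 0.00136) and Tgfbr3 (-0.95, FDR 0.00147) lower. Ltbp1 did not pass (FDR 0.0182), although its value was 1.58, against 1.54 with all lines. Tgfb3 (2.25, FDR 0.000854), Tgfbr2 (1.35, FDR 2.55e-05) and Ltbp3 (2.06, FDR 5.57e-05) passed in that quasi-likelihood fit too, in which 18.4% of 17021 genes were higher and 15.9% lower. With another line left out, Tgfb3 and Ltbp3 passed each time, whereas Tgfbr2 had a quasi-likelihood FDR of 0.0104 without WT#1-4, 0.0102 without Nox4-/- #5-8 and 0.0182 without #5-23, and Ltbp1 had 0.0557 without #5-8 and 0.0324 without #5-23. A joint test over the 5 days called Tgfb3 (quasi-likelihood FDR 0.000597) and Ltbp3 (FDR 0.000124), with 17.3% of all genes called. Tgfb3 did not pass it without Nox4-/- #5-8 (FDR 0.0166) or without #5-23 (FDR 0.0259), and without WT#20D-17 Tgfb1, Tgfbr2 and Tgfbr3 passed as well (FDR 0.00211, 0.000176 and 0.00999 by the quasi-likelihood test), when 3978 of 17021 genes were called in place of 3188 of 18474. None of the 10 genes passed between days 0 and 3, 3 and 7, or 7 and 14. In these steps 0.162%, 0% and 0.0108% of all genes passed by the quasi-likelihood test, and 11.4%, 17.5% and 16.9% had an unadjusted p under 0.05. Whether the course over days differed between genotypes was tested by the interaction, which 2 of 19240 genes (0.0104%) passed by the quasi-likelihood test, none of them among the 10. At an unadjusted p under 0.05 it was 7.23% of genes, and DESeq2's likelihood ratio test called 201. Without WT#1-4, when WT#20D-17 was the only wild type line, 666 genes passed by the quasi-likelihood test, among them Tgfb2 (FDR 0.00292), Tgfbr2 (FDR 0.00209) and Tgfbr3 (FDR 0.00195).

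**Figure D4:**
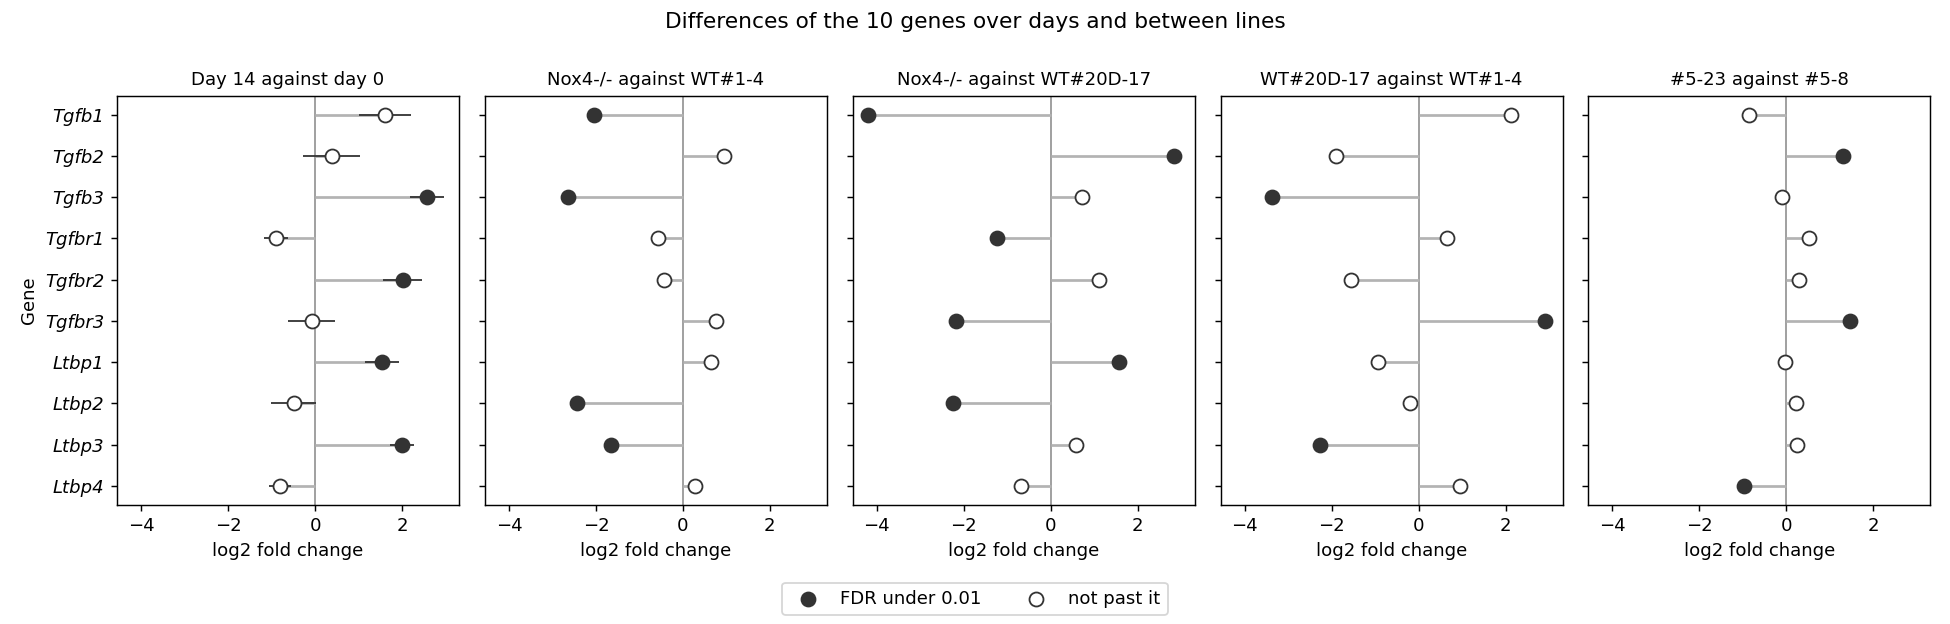
Log2 fold change of the 10 genes from day 0 to day 14 (bars are 1 SE) and in 4 comparisons between lines with days pooled, where filled symbols passed an FDR of 0.01. Tgfb1 and Ltbp2 are lower in Nox4-/- cells against both wild type lines, whereas Tgfb3 and Ltbp3 are lower against WT#1-4 only.

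The second comparison asked how Nox4-/- cells differ from wild type cells. Against WT#1-4, edgeR's exact test with days pooled called 4 of the 10 genes lower (Tgfb1, Tgfb3, Ltbp2 and Ltbp3) and none higher, with 5.62% of 33860 genes called, 3.97% lower and 1.65% higher. The median of the 10 genes was -0.50, against 0.00 over all genes. Against WT#20D-17 the test called 6 genes, with Tgfb1, Tgfbr1, Tgfbr3 and Ltbp2 lower and Tgfb2 and Ltbp1 higher, when 25.8% of all genes were called, 16% lower and 9.83% higher. The median was -0.04, against -0.02 over all genes. Both comparisons use the same 10 Nox4-/- libraries. The shares here, and those of the exact test beside the lists below, are over all 33860 genes nonzero in at least 1 library. Only 18474 genes passed the filter on low counts in the test of days, and all 10 genes were among them. The shares thus also cover genes of lower counts, and are not shares of genes as abundant as the 10. With edgeR's filter on low counts, the exact test called 1601 genes against WT#1-4 and 6904 against WT#20D-17. Between lines of 1 genotype, 3 genes differed between the wild type lines (Tgfb3, Tgfbr3 and Ltbp3, with 17.7% of all genes called, 9.96% higher and 7.78% lower in WT#20D-17) and 3 between the Nox4-/- lines (Tgfb2, Tgfbr3 and Ltbp4, with 2.19% called, 1.05% higher and 1.14% lower in #5-23).

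The 5 days of a line share 1 clone and do not replicate the genotype, and the p-values of these comparisons measure only the spread between libraries. With the line as the unit, the counts summed over days gave 2 lines against 2. None of the 10 genes passed, nor did any of 20229 genes (0% by the quasi-likelihood test, with 8.05% at an unadjusted p under 0.05). The lowest unadjusted p values of the 10 genes were 0.0142 for Ltbp2 (log2 fold change -2.36, SE 0.558, quasi-likelihood FDR 0.604) and 0.0248 for Tgfb1 (-3.44, SE 0.970, FDR 0.604). Without WT#20D-17, which leaves 1 wild type line against 2 and no spread between wild type lines, the log2 fold changes were -2.45 for Ltbp2 and -1.91 for Tgfb1. DESeq2's Wald test on the same sums called 783 genes, among them Ltbp2 (FDR 0.000321). In terms of levels, 3 of the 10 genes (Tgfb1, Tgfbr1 and Ltbp2) were lower in both Nox4-/- lines than in both wild type lines on each of the 5 days, a pattern held by 4.15% of 18474 genes, and none was higher on each day (3.35%). Ltbp2 was 1 of the 1.53% of genes in which all 10 Nox4-/- libraries lay below all 10 wild type libraries, and none of the 10 genes was in the 1.07% with the opposite order.

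With 1 Nox4-/- line or 1 day left out at a time, the calls of Tgfb3 and Ltbp2 against WT#1-4 held in the exact test, and those of Tgfb1 and Ltbp3 did not, as given above. Without Nox4-/- #5-8, so that #5-23 stood alone, Tgfb2 (exact test FDR 1.56e-05) and Tgfbr3 (1.34, FDR 0.000288) were higher than in WT#1-4. The 967 genes of chromosome 5, which holds Tgfbr3, were by their median 0.49 to 0.55 higher in #5-23 than in WT#1-4, relative to all genes. The part of that shift in the Tgfbr3 value was not tested. Against WT#20D-17, Ltbp4 passed without #5-8 (-1.22, exact test FDR 0.00611). Between the wild type lines, Tgfb1 (FDR 0.00769) and Tgfb2 (FDR 0.00116) passed the exact test without day 0. Tgfb1 also passed it without day 14 (FDR 0.000225), and passed DESeq2's Wald test with all days (FDR 0.00965). The call of Tgfbr3 was lost with a term for day, as given above.

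Genes that act around the ligands were described from 4 lists. The first holds 21 genes that store or release latent TGF-beta, such as integrins, proteases and fibrillins. On day 14 against day 0, 9 of the 21 were higher and none was lower by the quasi-likelihood test, against 14.3% higher and 13.5% lower of all genes, with a median log2 fold change of 1.41. Without WT#20D-17, 8 of 19 were higher and none lower, against 18.4% higher and 15.9% lower of all genes in that fit, and the median was 0.73. They included Thbs1, the thrombospondin that activates latent TGF-beta (3.58, SE 0.585, FDR 0.000162), the crosslinking enzyme Tgm2 (2.50, SE 0.330, FDR 2.63e-05), the integrin subunit Itgb5 (1.90, SE 0.165, FDR 1.19e-06) and fibronectin, Fn1 (1.60, SE 0.235, FDR 6.42e-05). In Nox4-/- cells against WT#1-4, 4 of the 21 were lower and none higher, against 3.97% lower of all genes, with a median of -0.66. These were the gelatinases Mmp2 (-4.78, exact test FDR 4.09e-54) and Mmp9 (-3.95, FDR 7.73e-06), the urokinase Plau (-2.87, FDR 6.35e-14) and fibrillin-1, Fbn1 (-2.78, FDR 1.71e-13), the microfibril protein to which LTBPs attach. Mmp2 was 73.2, 108, 94.1, 155 and 183 CPM in WT#1-4 and at most 7.24 CPM in any Nox4-/- library, and it was 27.2, 30.5, 56.8, 43.2 and 113 CPM in WT#20D-17. Mmp2 did not overlap between genotypes, and 1.53% of 18474 genes likewise had all Nox4-/- libraries below all wild type libraries. Fbn1 did overlap, since WT#20D-17 had 2.66 CPM of it on day 0. Against WT#20D-17, where 16% of all genes were lower, 11 of the 21 were lower and 1 was higher, Lrrc32, the surface anchor of latent TGF-beta (5.33, exact test FDR 4.52e-19). Lrrc32 was also lower in WT#20D-17 than in WT#1-4 (-5.03, exact test FDR 2.02e-21).

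The second list has 8 accessory receptors and soluble binders. By day 14, 3 of the 7 that passed the filter were higher and none lower, against 14.3% and 13.5% of all genes (3 and 1 without WT#20D-17, against 18.4% and 15.9%), namely the proteoglycan Fmod (5.22, SE 0.453, FDR 1.20e-06), the endothelial type I receptor Acvrl1 (3.57, SE 0.355, FDR 3.12e-06) and the co-receptor Cd109 (1.54, SE 0.219, FDR 5.01e-05) in the quasi-likelihood test. Against WT#1-4, endoglin (Eng), a co-receptor of vessels, was higher in Nox4-/- cells (1.93, exact test FDR 3.70e-06) and biglycan (Bgn), a matrix proteoglycan that binds TGF-beta, was lower (-2.52, FDR 5.44e-05), 2 of the 8 genes where 5.62% of all genes passed. Against WT#20D-17, 4 of the 8 passed the exact test, with Cd109 (8.18) and Fmod (3.57) higher and Bgn (-2.77) and the pseudoreceptor Bambi (-1.67) lower, where 25.8% of all genes passed. Eng was between 2.13 and 4.25 CPM in WT#1-4, between 6.31 and 10.3 in Nox4-/- #5-8 and between 10.7 and 20.8 in Nox4-/- #5-23, so that these lines did not overlap. WT#20D-17 had 27.2 CPM on day 0 and 2.15 on day 14.

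The third list has 23 Smads and their regulators. By day 14, 4 were higher and 2 lower (quasi-likelihood test), near the 27.8% of all genes called, with a median of 0.25. Without WT#20D-17, 7 were higher and 2 lower, against 18.4% and 15.9% of all genes, and Smurf1 did not pass (quasi-likelihood FDR 0.0131). The inhibitory Smad6 (3.36, SE 0.581, FDR 0.000260), the ubiquitin ligases Nedd4l (1.73, SE 0.238, FDR 3.69e-05) and Smurf1 (1.06, SE 0.231, FDR 0.00164), both of which limit Smad signalling, were higher, and the kinase Map3k7 (-0.94, SE 0.139, FDR 7.21e-05) was lower. None of the 23 passed the exact test between Nox4-/- cells and WT#1-4 (median -0.09), where 5.62% of all genes passed and 16.8% had an unadjusted p under 0.05. Against WT#20D-17, 7 were lower and 2 higher (median -0.20), with 16% lower and 9.83% higher of all genes.

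The fourth list has 28 genes known to respond to TGF-beta. Of these, 10 were higher and 1 lower on day 14 (median 1.31; without WT#20D-17, 12 higher and 1 lower of 27), against 14.3% higher and 13.5% lower of all genes (18.4% and 15.9% without that line), among them the lysyl oxidase Lox (5.68, SE 1.09, FDR 0.000629), the matricellular genes Ccn2 (4.54, SE 0.572, FDR 1.78e-05) and Ccn1 (4.43, SE 0.653, FDR 6.78e-05) and the transcription factor Bhlhe40 (3.09, SE 0.349, FDR 7.11e-06) in the quasi-likelihood test. Against WT#1-4, 12 of the 28 were lower in Nox4-/- cells and none higher (median -1.02, with 3.97% of all genes lower), with Mmp2 as above, Lox (-4.37, exact test FDR 4.89e-07) and the collagen chains Col1a2 (-3.60, FDR 5.86e-13) and Col1a1 (-3.44, FDR 5.05e-08) the furthest from 0. Against WT#20D-17, 18 were lower and 4 higher (median -3.17), with 16% lower and 9.83% higher of all genes. Between the wild type lines 12 were higher and 4 lower in WT#20D-17, with 9.96% higher and 7.78% lower of all genes. Ccn2, a direct Smad target, was 17.7, 66.3, 100.1, 119 and 309 CPM in WT#1-4 and 45.6, 90.6, 209, 223 and 2358 CPM in WT#20D-17. The Nox4-/- libraries held between 2.04 and 42.3 CPM, below both wild type lines on each day, a pattern held by 4.15% of 18474 genes. The list shares 4 genes with the fibroblast markers and 2 with the smooth muscle markers. It also shares 3 genes with the third list and 2 (Fn1 and Mmp2) with the first, so the counts of these lists are not separate. Of the 12 fibroblast markers 7 were lower in Nox4-/- cells than in WT#1-4 and none higher by the exact test. Of the 5 smooth muscle markers 3 were lower, where 3.97% of all genes were lower and 1.65% higher. In the other marker lists, 2 of 6 endothelial, 1 of 6 neural, 1 of 5 cardiac and 1 of 9 pluripotent genes were lower. Of 5 parietal endoderm markers 1 was higher, and none of 6 endoderm and 6 blood markers passed. Against WT#20D-17, 7 fibroblast and 4 smooth muscle markers were lower and none was higher, where 16% of all genes were lower and 9.83% higher. By day 14, 3 of 5 cardiac and 3 of 6 endoderm markers were higher by the quasi-likelihood test and none lower. So were 2 of 5 smooth muscle, 2 of 5 parietal endoderm, 1 of 5 endothelial and 1 of 11 fibroblast markers. Of the 9 pluripotent markers 1 was higher and 2 were lower, and of 5 neural markers 1 was lower. Over all genes 14.3% were higher and 13.5% lower. Without WT#20D-17, 2 of 2 cardiac, 2 of 3 smooth muscle, 2 of 5 parietal endoderm and 2 of 6 pluripotent markers were higher and none lower. The 1 endoderm marker tested in that fit did not pass, where 18.4% of all genes were higher and 15.9% lower. The part of these markers in the counts of the response list was not tested.

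**Figure D5:**
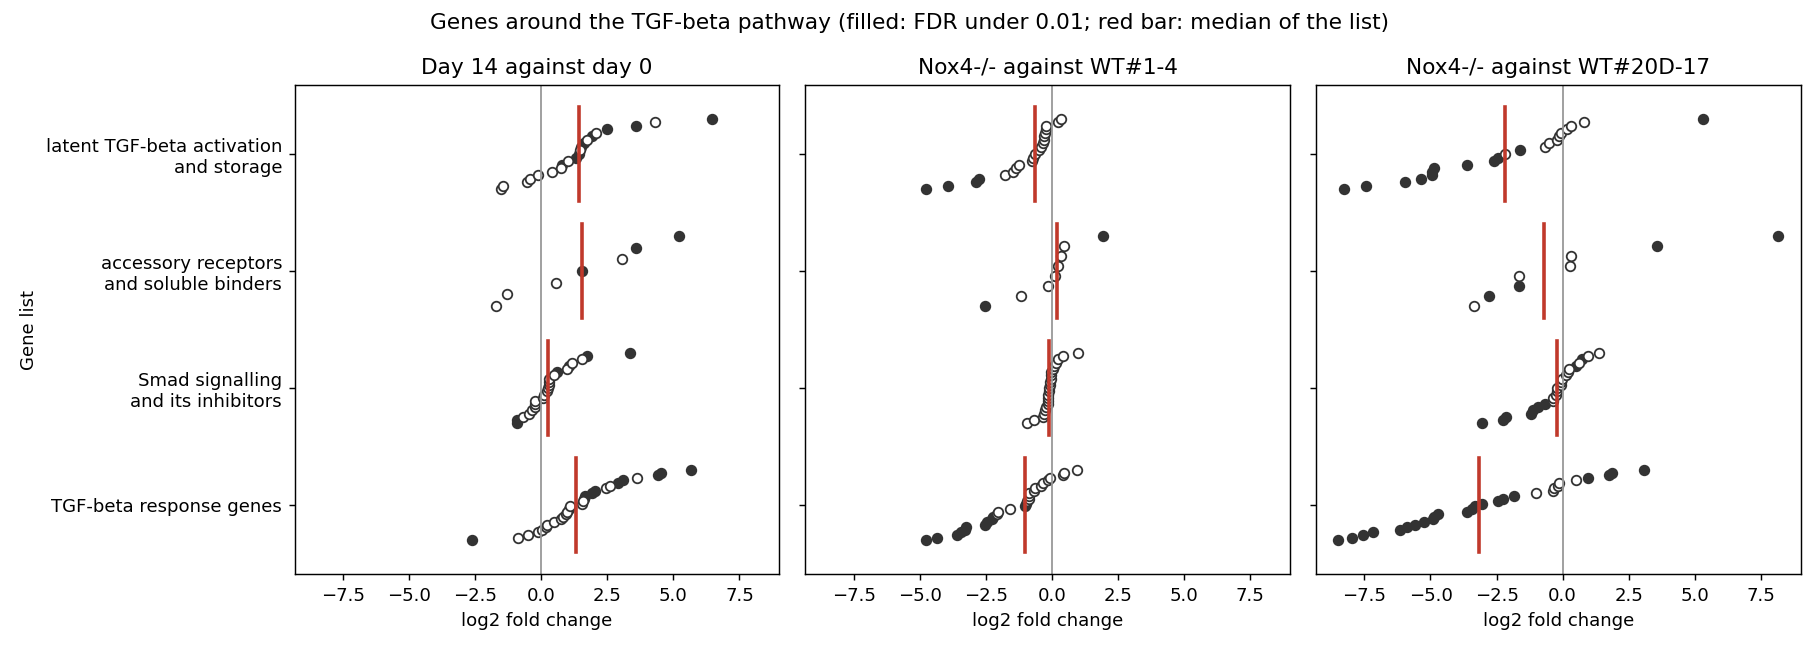
Log2 fold change of each gene of the 4 lists (1 point per gene, filled where the FDR was under 0.01) on day 14 against day 0 and in Nox4-/- cells against each wild type line, with a red bar at the median of the list. The median of the response genes is 1.31 in the first panel, -1.02 in the second and -3.17 in the third.

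The genes whose levels were most like those of a member were found by Pearson's r of log2(CPM + 1) over the 20 libraries. They were sought among the 14578 genes whose mean reached 1 CPM. Line means were not removed, so r covers differences between lines as well as changes over days. The libraries share 4 lines, so r describes these points only. For Tgfb1 they were Hbegf (0.972), Smap1 (0.959) and Pgf (0.955). Hbegf and Pgf are secreted growth factors of the EGF and VEGF families. For Tgfb2 they were Npnt (0.961), Ak3 (0.956) and Efna5 (0.948). For Tgfb3 they were Ltbp3 (0.942), Actg2 (0.937), a smooth muscle actin, and Nek11 (0.925). Tgfb3 and Ltbp3 were the only pair of the 10 genes found in this way. For Tgfbr1 they were Dcbld2 (0.926), Abhd13 (0.923) and Asph (0.921), and for Tgfbr2 they included Bicd2 (0.965) and Parva (0.955). For Tgfbr3 they were Cpd (0.949), Osbpl6 (0.932) and Slc7a6 (0.930). The LTBP genes had Sdccag8 (0.903), Cat (0.873) and Ggn (0.868) for Ltbp1, 5730409E04Rik (0.936), Gm14419 (0.935) and Gstk1 (0.923) for Ltbp2, Mindy2 (0.946), Tgfb3 and Ndrg4 (0.941) for Ltbp3, and Setd4 (0.905), Dlgap3 (0.883) and Syk (0.863) for Ltbp4. Within the 10 genes, Tgfbr2 had r of 0.758 with Tgfb2, 0.706 with Tgfb3 and 0.720 with Ltbp3, and -0.768 with Ltbp4, and Tgfb1 had r of -0.529 with Tgfb2.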

How the data were processed

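Raw reads of stranded mRNA libraries were processed by the authors, who trimmed them, aligned them with STAR 2.6.0c to mm10 (GRCm38) and estimated gene counts with RSEM 1.3.1. The deposited values are these expected counts of 55573 Ensembl genes, without normalization. Of all values 9.92% had decimals, 39 of them among the 200 values of the 10 genes, and all were rounded here.

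Genes were named from GENCODE M21 (55480 identifiers matched). Fits were made in edgeR 4.0.16 and, as an alternative, DESeq2 1.42.0 (R 4.3.3). Days were compared with the quasi-likelihood test over 20 libraries (line and day as terms, TMM, filterByExpr). Lines were compared with the exact test after TMM over the 33860 genes that were nonzero in at least 1 library, days pooled, as in the study's methods, and their SEs come from the quasi-likelihood fit of the same libraries. FDR is Benjamini-Hochberg adjusted over all genes tested, with a threshold of 0.01. The line term is the replicate block: differences between lines of 1 genotype had a mean correlation between days of 0.618 (Nox4-/-) and 0.784 (wild type) over 14579 genes. Levels between genes are CPM per kilobase of merged exons. Tests were tried on counts simulated from the mean of each gene, without differences between lines of a genotype. These trials therefore do not cover the spread between lines. The counts of list genes without WT#20D-17 were added after seeing the data. The members and lists were chosen with earlier results of these data known. Named are Nox4 and all members, from each list up to 4 called genes of largest change per comparison (day 14 against day 0, Nox4-/- against WT#1-4) whose mean reached 1 CPM, and for each member the 3 genes of highest r; Lrrc32 and the gene-wise levels of Ccn2, Eng and Mmp2 were picked after their values were seen. Some results that these rules would name are not reported here.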

Additional observations from a re-analysis of the deposited data

Results flagged for a closer look

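In groups of 2 lines no test for outlying libraries was made. Each of the 10 genes was compared between days 0 and 3, 3 and 7, 7 and 14, and 0 and 14, which makes 40 comparisons. In 5 of them both lines of 1 genotype lay on 1 side and both of the other genotype on the opposite side. Over all 18474 genes 8.59% of such comparisons had this pattern, so 5 of 40 is read as no result about the 10 genes. The difference between genotypes was not tested in any of the 5 beyond the interaction over all days. No member passed that test with all 4 lines, and Tgfb2 passed it without WT#1-4 (quasi-likelihood FDR 0.00292). Ltbp1 on day 14 was 0.540-fold and 0.766-fold its day 7 level in WT#1-4 and WT#20D-17, and 1.28-fold and 2.32-fold in Nox4-/- #5-8 and #5-23. For Tgfb2 in the same step the values were 0.588 and 0.278 in the wild type lines against 1.03 and 1.00 in the Nox4-/- lines, the latter close to no change. For Ltbp4 they were 1.62 and 1.09 against 0.955 and 0.898. From day 3 to day 7, Ltbp4 was 0.573-fold and 0.499-fold in the wild type lines in the same order and 1.06-fold and 1.14-fold in the Nox4-/- lines. Ltbp2 in that step was 0.918-fold and 0.913-fold against 1.48-fold and 13.6-fold, where the last value starts from 1 count.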

How the results depend on the processing

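Without the replicate block (the line term), 1033 genes passed over the course of days in place of 3188, 2481 in place of 5139 between days 0 and 14, and 0 between days 0 and 3, between days 7 and 14 and in the interaction. Tgfb3 and Ltbp3 then did not pass over the course of days (FDR 0.635 and 0.152), and none of the members passed between days 0 and 14 (FDR 0.171 for Tgfb3, 0.0961 for Tgfbr2, 0.0522 for Ltbp1 and 0.0457 for Ltbp3), and Tgfbr3 had a value of 0.82. With day as a replicate block, 2135 genes passed between the Nox4-/- lines in place of 740. Without a filter on low counts 92, 2 and 23 genes passed between days 0 and 3, 3 and 7, and 7 and 14 (30, 0 and 2 with it), and 11 in the interaction. DESeq2 called 5114 genes over days, 201 in the interaction, 1166 between the Nox4-/- lines and 783 with the line as unit. The quasi-likelihood test with days pooled called 1228 genes against WT#1-4 (1903 by the exact test) and 256 between the Nox4-/- lines, where Ltbp4 had an FDR of 0.0112. With filterByExpr the log2 fold change of Ltbp1 between these lines was 0.0027 (FDR 1). At an FDR of 0.05, 5296 genes passed over days, 7785 between days 0 and 14, 119, 41 and 88 in the steps, 5 in the interaction and 1208 between the Nox4-/- lines.

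With 1 line or day left out, counts ran from 624 (without Nox4-/- #5-23) to 3978 over days, 2567 (without #5-23) to 5839 between days 0 and 14, 0 to 89, 0 to 44 and 0 to 21 in the steps, 0 to 666 (without WT#1-4, with Tgfb2, Tgfbr2 and Tgfbr3 among them) in the interaction, 1114 (without day 7) to 1994 against WT#1-4, 272 (without day 5) to 950 between the Nox4-/- lines and 0 to 178 with the line as unit, where the line left alone on a side is assumed to vary like the other 2. Log2 fold changes that took both signs ran from -0.95 to 0.42 for Tgfbr3 between days 0 and 14, from -0.15 to 1.34 for Tgfbr3 and -0.26 to 0.69 for Ltbp4 against WT#1-4, from -0.22 to 0.015 for Tgfb3, -0.45 to 0.19 for Ltbp1 and -0.087 to 0.54 for Ltbp2 between the Nox4-/- lines, and, with the line as unit, from -2.57 to 0.87 for Tgfb3, -1.58 to 0.69 for Ltbp3, -0.37 to 1.27 for Tgfbr2, -2.15 to 0.76 for Tgfbr3 and -0.78 to 0.32 for Ltbp4. Of these, Tgfbr3 passed between days 0 and 14 without WT#20D-17 and against WT#1-4 without Nox4-/- #5-8. The cause of these changes was not tested. Levels scaled with DESeq2 size factors were 0.969 to 1.06 times those given. Counts of a few reads, as for Ltbp2 in Nox4-/- cells, limit the precision of folds.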

Other observations

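Summed levels of markers of other cell types also differed between the lines, with overlap for some of them. Parietal endoderm markers (Lamb1, Lama1, Col4a1, Sparc and Thbd), genes of the thick basement membrane made by that tissue, summed to between 1294 and 55205 CPM in WT#20D-17, and their highest sums were 2602 CPM in WT#1-4, 1142 in Nox4-/- #5-8 and 1407 in Nox4-/- #5-23, so that the lowest library of WT#20D-17 lay within the range of WT#1-4 and of Nox4-/- #5-23. Thbd went against the sum, since WT#20D-17 had less of it than Nox4-/- cells did (log2 fold change of the latter 2.98, exact test FDR 0.000617) and had a value of -1.27 in WT#20D-17 against WT#1-4 (exact test FDR 0.398). Cardiac markers summed to a median over days of 99.9 CPM in WT#20D-17, against 1.75 in WT#1-4, 3.08 in Nox4-/- #5-8 and 0.137 in Nox4-/- #5-23, and the lowest sum of WT#20D-17 (4.47) was under the highest of WT#1-4 (6.10) and of Nox4-/- #5-8 (7.70). The summed level of the neural markers lay the other way, with a median over days of 67.6 CPM in WT#20D-17 and 351 in WT#1-4, and 169 and 125 in Nox4-/- #5-8 and #5-23. Of the 6 neural genes, Map2, Pax6 and Sox1 were lower in WT#20D-17 than in WT#1-4 by the exact test (log2 fold change -5.76, -3.69 and -4.95), whereas Nes and Neurog2 were higher (1.71 and 5.01). Of the 12 fibroblast markers 6 were higher in WT#20D-17 than in WT#1-4 and 2, Prrx1 (-3.34) and Twist1 (-1.68), were lower by the same test. Beside these neural and fibroblast counts, 9.96% of all genes were higher in WT#20D-17 and 7.78% lower. The sums are given without a test.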
